A study of Saccharomyces cerevisiae with 4 samples.

Results

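Rapamycin treatment was compared with mock treatment in wild-type budding yeast, Saccharomyces cerevisiae, on spotted 2-colour arrays, of which 2 of 4 were made for the wild type. The other 2 arrays made the same comparison in a ptc1 strain, which lacks a type 2C protein phosphatase. The treated wild-type cells received 200 ng/ml rapamycin for 1 h at an absorbance (A660) of 0.5, and the mock-treated wild-type cells received the vehicle, 90% ethanol with 10% Tween-20. Both cultures grew at 28 °C in YPD, a rich medium with glucose and abundant amino acids, and the strain background was not given in the sources used here. The wild-type arrays are read as repeats of 1 pair of RNA samples with the dyes swapped, rapamycin in Cy3 on array 1 and in Cy5 on array 2. They count as 1 biological sample, and whether separate cultures were used is not given in the sources used here. No test of the treatment can be had, and the spread between the arrays, given as both values or as an SD, is technical. Of 6176 genes in the table, 4796 had a value on both wild-type arrays, and these are the genes described.

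Rapamycin binds the small protein Fpr1, and the pair inhibits TORC1, the kinase complex through which yeast couples growth to the nitrogen supply. Active TORC1 keeps the genes of ribosome production transcribed. It also holds the GATA factors Gln3 and Gat1, the retrograde factors Rtg1 and Rtg3 and the stress factors Msn2 and Msn4 out of the nucleus, so that genes for poor nitrogen sources, for early TCA cycle enzymes and for stress protection stay low in rich medium. Autophagy, which TORC1 restrains through Atg13, is induced by the drug.

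Each value is a log2 ratio, taken here with rapamycin on top and mock below. The sources used here give neither the base of the logarithm nor the direction. If the base were another, every fold given here would change while signs and ranks would not. If the ratio ran the other way, every sign would turn, and each rise given here would be a fall and each fall a rise. The words rose and fell are kept for genes whose mean over the arrays reached 1 in size (2-fold) and whose arrays had the same sign. By this rule 660 genes rose, 13.8% of those measured, and 718 fell, 15.0%. The background against which a list is read is therefore 28.7% of genes past the rule in either direction, with a median of 0.07 over all genes. In what follows, a pair of log2 ratios joined by a slash gives wild-type array 1 and then array 2, and a single log2 ratio for a gene is the mean over both unless it is said to come from 1 array.

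On this direction of the ratio falls outnumbered rises from 4-fold upwards, an order that would turn with it. The largest mean was nevertheless a rise, GAP1 at 5.60, and the largest fall was RPS22A at −5.33. Of the genes that rose, 497 did so by 2-fold to 4-fold, 111 by 4-fold to 8-fold, 35 by 8-fold to 16-fold and 17 by more. Of the genes that fell, the corresponding counts were 404, 150, 128 and 36. At 8-fold or more there were 52 rises and 164 falls, which with the sign turned would be 164 rises and 52 falls. 134 of those falls were in genes for making ribosomes, ribosomal proteins, transfer RNA and translation factors, whose lists held 501 of the 4796 measured genes. Of the 36 falls of 16-fold or more, 32 were ribosomal protein genes, of which 118 were measured. The large rises were spread over several groups: among the first 20 were the general amino acid permease GAP1, the vacuolar carboxypeptidase CPS1, the arginine enzymes ARG4 and ARG1, the small heat shock genes HSP12 and HSP26, the vitamin B6 gene SNZ1, the peroxisomal citrate synthase CIT2 and the ammonium permease MEP2.

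**Figure D1:**
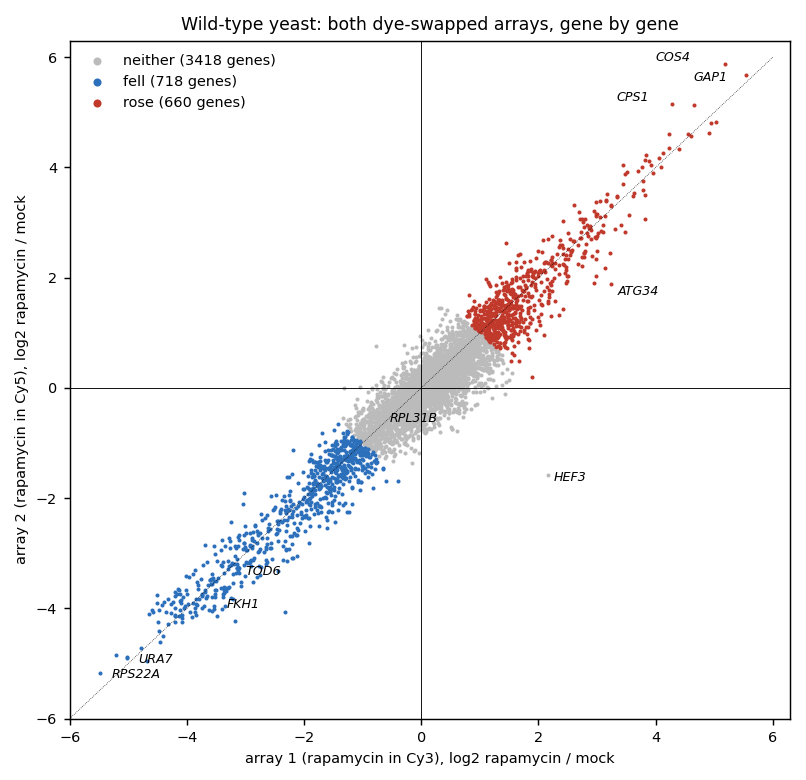
Log2 ratio of rapamycin over mock for each gene measured on both wild-type arrays, array 1 (rapamycin in Cy3) on the horizontal axis and array 2 (rapamycin in Cy5) on the vertical. Red points are the 660 genes that rose, blue points the 718 that fell and grey points the 3418 that did neither; the dotted line marks equal values, and HEF3 lies far from it.

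Genes for bringing nitrogen into the cell rose. Of 15 measured permeases known to be held down by good nitrogen sources, 9 rose and none fell, with a list median of 2.27. Without array 1 the median was 1.49, over a set of genes that gains GNP1, which has a value on array 2 alone. GAP1, which takes up all amino acids, had 5.54 / 5.67, the largest mean of any gene, 5.60 ± 0.09 or 48.6-fold. The ammonium permeases were graded: MEP2, the high-affinity one, had 3.89 / 4.11, MEP1 had 2.45 / 2.09, and MEP3 had 0.13 / 0.45, which is below the rule. All of them carry ammonium, so members of a small family with the same substrate differed widely. The broad amino acid permease AGP1 had 2.72 / 3.07, the urea permease DUR3 2.68 / 2.59 and the peptide permease PTR2 2.35 / 2.55. The dicarboxylic amino acid permease DIP5 and the arginine permease CAN1 rose as well, with means of 2.52 and 2.37. The GABA permease UGA4 was nearer the threshold at 1.44 / 0.88. The proline permease PUT4 had −0.49 / −0.05, and the oligopeptide transporter OPT1 had a mean of −0.97.

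Breakdown of poor nitrogen sources was measured less completely. In the allantoin pathway, which releases ammonium from purine waste, DAL3 had 3.70 / 3.93 and DAL2 2.10 / 2.26, while DAL1 and the transcription factor DAL82 stayed below 2-fold with means of 0.88 and 0.71. DAL5, DAL7 and DUR12, the allantoate permease, the malate synthase of the pathway and urea amidolyase, had a value on array 1 alone, of 3.80, 3.66 and 3.01. These are single readings and were not counted. The GABA genes rose together: UGA1, the transaminase, had 2.51 / 2.52, UGA2, the next dehydrogenase, 2.21 / 2.23, and their activator UGA3 1.87 / 2.16. GAD1, which makes GABA from glutamate, had 3.0 / 3.15. The proline genes did not follow, with PUT2 at 0.63, their activator PUT3 at 0.07 and no value for PUT1.

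The regulators of these genes had smaller values than GAP1, MEP2 or DAL3. GAT1 rose to 1.11 / 1.57, while GLN3 had a mean of 0.82 and URE2, the cytoplasmic anchor of Gln3, one of 0.35. DAL80, the repressor of the same genes, had no value. Of 7 measured genes of the sensor for amino acids outside the cell, the factors STP2 and STP1 rose, with means of 1.65 and 1.07, and the sensor SSY1 itself had 0.22. Of 16 measured genes that sort permeases, 2 rose: NPR1, a kinase that keeps Gap1 at the surface, at 1.27, and ECM21, an adaptor that sends permeases to degradation, at 1.46.

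Permeases with a narrower range behaved otherwise. Of 13 measured amino acid permeases that serve cells in rich medium, 5 fell and 3 rose, the rises being AGP1, CAN1 and DIP5, which also stand in the nitrogen-regulated list. TAT1, a tyrosine and valine permease, had −3.13 / −2.71 and the tryptophan permease TAT2 had −1.33 / −0.81. The S-methylmethionine permease MMP1 had −2.85 / −2.50 and the high-affinity methionine permease MUP1 −2.25 / −1.87. The branched-chain permease BAP3 fell to a mean of −1.36, its relative BAP2 had no value, and the glutamine permease GNP1 had −1.65 on array 2 alone. The lysine permease LYP1 and the histidine permease HIP1 stayed near 0, with 0.17 and −0.27. The amino acid permeases thus split by member and not as one class.

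All 5 listed genes that join ammonium to carbon, or release it from glutamate, rose. GDH3 and GDH1, the NADPH-dependent glutamate dehydrogenases, had 3.61 / 3.48 and 2.37 / 2.60, and GDH2, which runs towards ammonium release, had 2.48 / 2.19. The glutamine synthetase GLN1 had 2.29 / 2.15 and the glutamate synthase GLT1 1.83 / 1.45. Genes for making both glutamate and glutamine and a gene for breaking glutamate down were thus higher together. Carbon for glutamate comes from the first TCA cycle steps, whose genes are the classical targets of the retrograde factors. CIT2 had 4.05 / 4.18, the pyruvate carboxylase PYC1 3.55 / 3.14 and the lactate dehydrogenase DLD3 2.77 / 2.45, and CIT1 and ACO1 rose less, with means of 1.76 and 1.31. IDH1 and IDH2 stayed below the rule at 0.70 and 0.85, as did the factors RTG1, RTG2 and RTG3, at −0.13, 0.72 and 0.58.

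**Figure D2:**
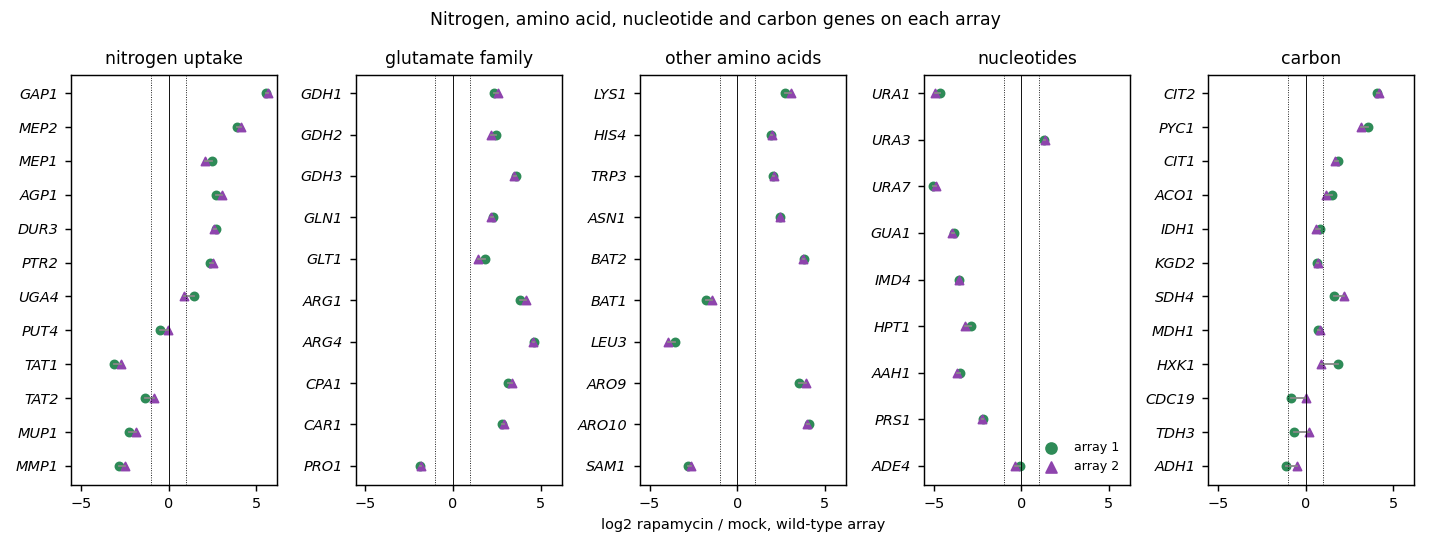
Log2 ratio of rapamycin over mock on wild-type array 1 (circles) and array 2 (triangles) for selected genes of nitrogen uptake, the glutamate family, other amino acids, nucleotides and carbon metabolism. The dotted lines mark 2-fold, and GAP1 at 5.60 and URA7 at −4.95 are the extremes shown. In most lines the distance between circle and triangle is small beside the distance from 0. It is not small for genes such as TDH3, CDC19, ADH1 and HXK1 under carbon, PUT4 under nitrogen uptake and ADE4 under nucleotides.

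Arginine synthesis was among the higher lists, below the glutamate and glutamine genes with their median of 2.33. 8 of 12 measured genes rose and none fell, with a median of 2.21. The last enzymes, argininosuccinate lyase ARG4 and argininosuccinate synthetase ARG1, had 4.60 / 4.58 and 3.82 / 4.14. CPA1, which takes part in making carbamoyl phosphate, had 3.15 / 3.38, and the mitochondrial ornithine exporter ORT1 had a mean of 2.58. The arginine-responsive regulators stayed below the rule, ARG80 at 0.69, ARG81 at 0.07 and ARG82 at −0.82. Arginine breakdown genes rose as well: arginase CAR1 had 2.77 / 2.92 and the ornithine transaminase CAR2 1.5 / 2.26. Genes for synthesis and genes for breakdown of the same amino acid were both higher. PRO1, the first step to proline, which also starts from glutamate, went the other way at −1.89 / −1.85.

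Lysine, tryptophan and histidine genes rose in part. 5 of 10 lysine genes rose, led by LYS1, the last enzyme, at 2.74 / 3.06, and by LYS2 and its activator LYS14 at 1.53 and 1.53. The homocitrate synthase genes LYS20 and LYS21 stayed below the rule at 0.74 and 0.87, and LYS4 had −0.93. Of 12 aromatic genes 7 rose, with TRP3 at 2.04 / 2.10 and the pentafunctional ARO1 at 1.83 / 1.36. ARO7, chorismate mutase, which turns the pathway from tryptophan towards tyrosine and phenylalanine, fell to −2.06 / −2.25. HIS5, HIS4 and HIS3 rose with means of 2.64, 1.97 and 1.75. GCN4, the activator shared by these pathways, had 0.85 / 0.79, and HIS6 had −0.82.

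The branched-chain pathway was divided. LEU3, its zinc-cluster regulator, fell to −3.54 / −3.95, and the isopropylmalate isomerase LEU1, the transaminase BAT1 and the reductoisomerase ILV5 fell with means of −2.13, −1.60 and −1.54. LEU4, an isopropylmalate synthase, rose to 2.08, and the cytosolic transaminase BAT2 to 3.79 / 3.75. The asparagine synthetases parted as well: ASN1 had 2.42 / 2.42 and ASN2 −0.22 / −0.08. The aspartate and threonine genes otherwise stayed within 2-fold. In the list for breakdown of aromatic amino acids to fusel alcohols and their esters, 3 of 12 measured genes rose and 2 fell, with a median of −0.27. The rises were the transaminases ARO9 at 3.52 / 3.92 and ARO8 at 1.13 / 1.39 and the decarboxylase ARO10 at 4.09 / 4.01. The alcohol acetyltransferases ATF2 and ATF1, which turn such alcohols into esters, fell to −2.66 / −2.89 and −1.30 / −1.04.

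In sulfur metabolism the falls lay in the genes of methionine, cysteine and S-adenosylmethionine, where 5 of 11 fell and 1, STR2, rose. SAM1, an S-adenosylmethionine synthetase, had −2.78 / −2.64, its isoenzyme SAM2 −1.03 / −0.88 and the salvage enzyme MEU1 −2.02 / −2.02. The cystathionine enzymes CYS4 and CYS3 had means of −1.70 and −1.31. In sulfate assimilation 3 of 14 genes rose, led by the cofactor gene MET28 at 2.49 / 1.94 and MET16 at 1.74 / 1.76. MET3 and MET14, which activate sulfate, had means of −0.73 and 0.32. In one-carbon metabolism the mitochondrial folate enzyme MIS1 fell to −1.92 / −2.02, and the glycine cleavage subunit GCV3 rose to 1.24.

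Guanine nucleotide and purine salvage genes fell together. Of 12 measured members 9 fell and 1, the guanine deaminase GUD1, rose, with a median of −2.06. GUA1, GMP synthetase, had −3.83 / −3.95 and IMD4, an IMP dehydrogenase, −3.57 / −3.56. The adenine deaminase AAH1 had −3.52 / −3.66 and the hypoxanthine transferase HPT1 −2.90 / −3.22. The de novo genes that lead to IMP mostly stayed below the rule: ADE4, their first step, had −0.10 / −0.38, and of the ADE genes only ADE57 fell and only ADE3 rose, with means of −1.28 and 1.14. The phosphoribosyl pyrophosphate synthetases PRS1, PRS3 and PRS4 fell with means of −2.21, −1.67 and −1.64.

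Pyrimidine genes held some of the largest falls outside the ribosome. URA7, the main CTP synthetase, had −5.02 / −4.88 and URA1, dihydroorotate dehydrogenase, −4.67 / −4.95. The uracil permease FUR4 and the uridine permease FUI1 fell with means of −1.98 and −1.42, and PPR1, the pathway's activator, to −1.26. URA3, the decarboxylase that Ppr1 also activates, rose to 1.27 / 1.32. URA2, which carries the first steps, had −0.64. The members of this pathway were therefore not moved as one, with URA1 and URA3 on opposite sides of the rule.

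Vitamin genes changed in a few places. SNZ1 and its partner SNO1, which make vitamin B6 in starved cells, had 4.55 / 4.61 and 2.11 / 2.10, whereas their subtelomeric copies SNZ2, SNZ3 and SNO3 had means of −0.31, −0.06 and 0.69. PDX3, which oxidises the vitamin to its active form, rose to 1.88. In NAD synthesis 7 of 16 genes rose, with BNA1 at 2.86 / 2.91 and the nicotinamidase PNC1 at 1.93 / 1.89. The thiamine list had no rise and 1 fall, the periplasmic phosphatase PHO3 at −3.25 / −2.43, in 14 measured genes. No biotin gene passed the rule in 3 measured.

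Ribosomal protein genes fell almost without exception. Cytosolic members numbered 118 with values, of which 117 fell; their median was −3.68. All 50 measured members of the small subunit fell, from RPS22A at −5.49 / −5.17 to RPS29A at −2.02 / −1.52, and ASC1, which sits on that subunit and signals in the glucose pathway, had −4.43 / −3.94. In the large subunit RPL9A had −5.02 / −4.91 and RPL5, which enters the ribosome with 5S RNA, −4.48 / −4.40. RPL31B was the member that did not fall by the rule, at −0.63 / −0.13, while its copy RPL31A had −3.75 / −3.99. RPL41A, whose protein is a very short peptide, fell least, at −0.60 / −1.68.

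Most yeast ribosomal proteins are made from a pair of duplicated genes, and 42 pairs had values for both copies. Both copies fell in 41 pairs and 1 copy in the RPL31 pair. The median size of the difference within a pair was 0.37, and 8 pairs were 1 or more apart. RPS18A had −3.70 and RPS18B −1.83, RPS7A had −4.75 and RPS7B −2.99, and RPL17A had −2.29 and RPL17B −3.99. Many copies are nearly identical in sequence. A spotted probe for one can bind cDNA of the other, so differences within these pairs are uncertain, and their sizes may be understated. Mitochondrial ribosomal proteins gave a contrast within the same assay: 3 of 62 measured fell, the largest being RSM26 at −1.23 / −1.01, and their median was −0.17.

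Assembly factors of the small subunit fell in 48 of 61 measured genes, with a median of −2.33. NOP56, a core protein of the box C/D particles, had −4.08 / −4.25, UTP13 −3.86 / −3.99 and the RNA acetyltransferase KRE33 −3.40 / −4.01. Factors that act late on the small subunit were mixed: NOB1, the nuclease of the last cut, had a mean of −1.12, the kinase RIO2 0.04 and HRR25 0.32. NOP1, the methyltransferase of the box C/D particles, rose to 1.03 / 1.41. Its partners in the particle, NOP56, NOP58 and SNU13, had means of −4.17, −2.92 and −3.54.

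Large-subunit assembly factors fell in 55 of 78 genes, with a median of −2.08. The GTPases NOG2 and NUG1 had −3.84 / −4.12 and −3.87 / −4.07, BRX1 −3.49 / −4.13 and the export adaptor NMD3 −3.34 / −3.63. Genes for rRNA modification and trimming fell in 17 of 29, led by the pseudouridine synthase CBF5 at −3.39 / −3.74 and the helicase MTR4 at −2.88 / −3.53. Several core exosome subunits stayed below the rule, such as RRP43 at −0.13 and SKI6 at −0.52.

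Among RNA polymerase I genes the subunits and the initiation factors differed. RPA43, the subunit that meets the factor Rrn3, had −4.47 / −4.62, RPA135 −3.15 / −3.27, RPA34 −3.03 / −3.21 and RPA12 −3.03 / −2.67. RPA14 had 0.09, and RRN3, the factor through which TORC1 acts on the polymerase, −0.29 / −0.67. Of 15 measured polymerase III genes 6 fell, with RPC31 and RPC82 at −1.84 and −1.79, and MAF1, its repressor, had 0.45 / 0.43. In polymerase II the falls were RPB5 at −2.46 / −2.64 and RPO26 at −1.78 / −1.75, both of which are shared by all nuclear polymerases. Of the 15 measured regulators of these genes, TOD6, a repressor of assembly genes, fell to −3.19 / −3.20. Its relative DOT6 had −0.11 / 0.30, SFP1 −0.33 / −0.24, FHL1 0.21 / −0.66 and the kinase SCH9 −0.48 / −0.70. UTP22, which links ribosomal protein transcription with processing, fell to −2.39.

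Translation factors fell less far but in number. For initiation, 19 of 28 genes fell (median −1.33), including the eIF3 subunits PRT1 at −2.45 / −2.48 and NIP1 at −1.96 / −2.30, and the scaffold TIF4631 at −2.26 / −2.35. Of 16 elongation and termination genes 14 fell, including STM1, which protects idle ribosomes, at −3.27 / −2.91, and the elongation factor EFT2 at −2.34 / −1.96. TEF1 and TEF2, which encode the same protein and cannot be told apart on the arrays, had −1.23 and −1.25. Of 20 tRNA synthetases 8 fell, GLN4 furthest at −1.78 / −2.22, and GUS1 and DPS1 had 0.03 and 0.06. 19 of 38 tRNA modification genes fell, with TRM8 at −2.68 / −2.97 and TRM11 at −2.58 / −2.90, and THG1, which adds a base to histidine tRNA, rose to 1.13 / 0.92.

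**Figure D3:**
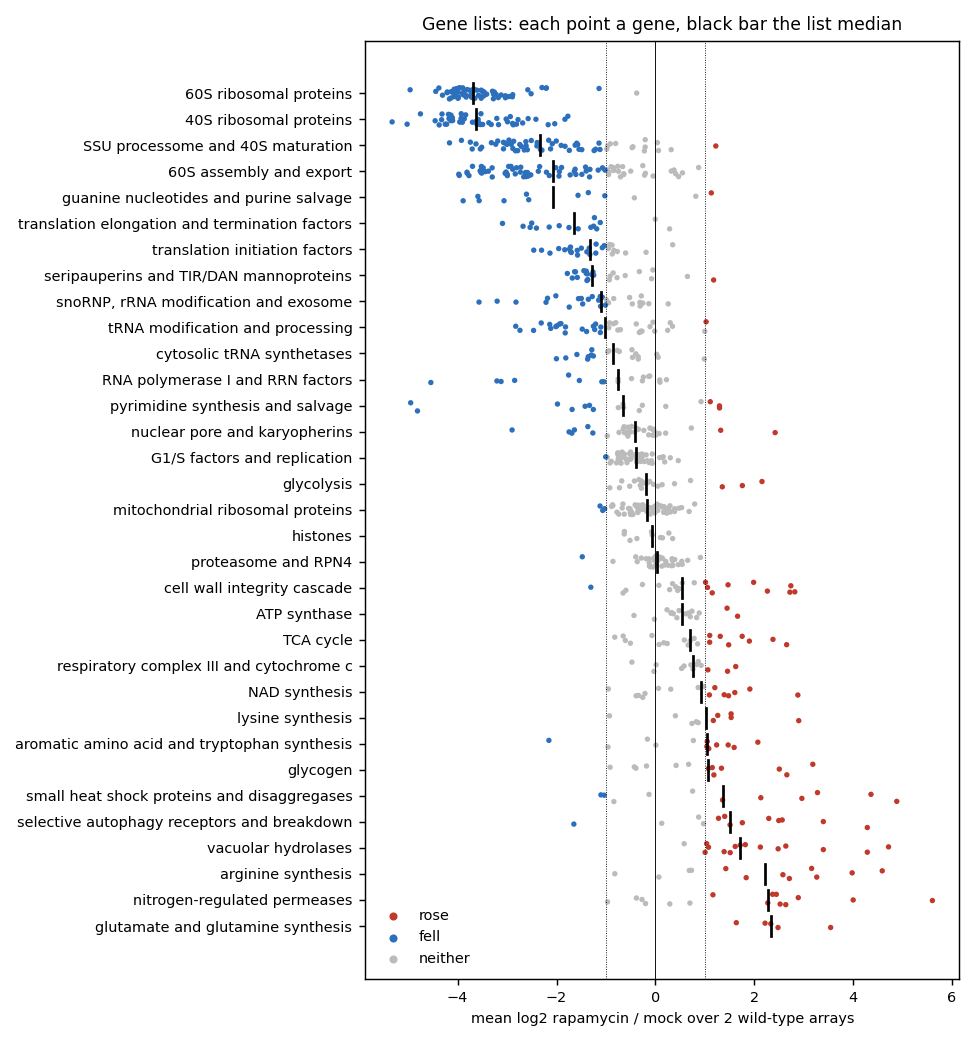
Mean log2 ratio of rapamycin over mock over both wild-type arrays (horizontal axis) for the measured members of selected gene lists (rows, ordered by median). Red points rose, blue points fell, grey points did neither, black bars are list medians and dotted lines mark 2-fold; ribosomal proteins have the lowest medians, at the top, and nitrogen, arginine and vacuolar genes the highest, at the bottom, while the histone and proteasome medians lie close to 0.

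Among genes for protective proteins some rose and others fell. In the list of small heat shock proteins and disaggregases 6 of 11 measured genes rose and 2 fell. In the list of Hsp70, Hsp90 and their co-chaperones 4 of 27 rose and 4 fell. Those shares are near the 13.8% and 15.0% of all measured genes. HSP12, a membrane-stabilising protein, had 4.95 / 4.81 and HSP26, a small heat shock chaperone, 4.39 / 4.33. The disaggregases HSP104 and HSP78 had 2.27 / 2.0 and 3.08 / 2.85. HSP31, of the DJ-1 family, had 3.15 / 3.41, whereas its subtelomeric relatives HSP32 and HSP33, which are near-identical to each other, fell to −1.10 and −1.04. Cytosolic Hsp70 genes did not act alike: SSA3 and SSA4 had 1.51 and 1.52, SSA1 and SSA2 0.12 and 0.26, and the ribosome-bound SSB2 −3.54 / −2.86. The partners of SSB2 on the ribosome, SSZ1 and ZUO1, fell to −1.56 and −1.40. HSP82 and HSC82, the Hsp90 genes, stayed at 0.55 and 0.23. In the chaperonin and prefoldin list 4 of 12 fell, PAC10 furthest at −2.99 / −3.16.

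Of 31 measured antioxidant genes 9 rose and 1 fell. TSA2, a peroxiredoxin, had 3.77 / 4.01 and the glutathione transferase GTT1 2.98 / 3.37. The mitochondrial PRX1 and SOD2 had means of 2.06 and 1.54, and the monothiol glutaredoxin GRX4 fell to −1.37 / −1.45. The catalase CTT1 had 0.95 / 1.0, just short of the rule, and cytosolic SOD1 had 0.24. Transcription factors known to drive such genes stayed below the rule, with MSN2 at 0.12 / 0.09, MSN4 at 0.72 / 0.51 and YAP1 at −0.10 / −0.31. NRG1, a glucose repressor, rose to 1.38, and CIN5, YAP6 and MGA1 fell to −1.06, −1.40 and −1.60.

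Storage carbohydrate genes rose in both directions of the pathway. Glycogen branching enzyme GLC3 had 3.41 / 2.96 and debranching enzyme GDB1 2.92 / 2.40. Phosphoglucomutase PGM2 had 2.55 / 2.46 and glycogen synthase GSY2 1.17 / 1.51, while the isoenzymes PGM1 and GSY1 had −0.39 and −0.18. The trehalases NTH1, NTH2 and ATH1 rose with means of 1.92, 1.27 and 1.39. TPS3, a subunit of trehalose synthase, rose to 1.01, and TPS1 and TSL1 had 1.99 and 1.38 on array 2 alone. In glycerol and dihydroxyacetone metabolism GCY1, a glycerol dehydrogenase, had 3.04 / 3.10, while the dihydroxyacetone kinases DAK1 and DAK2 had 1.32 / 1.54 and −2.81 / −2.60.

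Vacuolar hydrolases were nearly as uniform upwards as ribosomal proteins were downwards. 14 of 15 measured genes of the list rose, and its median was 1.72. The remaining entry, VTH2, which is not itself a hydrolase, had 0.58. Carboxypeptidase CPS1 had 4.28 / 5.15, aminopeptidase APE1 4.23 / 4.35 and alpha-mannosidase AMS1 3.34 / 3.46. Proteinase B, PRB1, had 2.61 / 2.67 and its inhibitor PBI2 2.75 / 2.22, so that the genes of the enzyme and its inhibitor rose to like values. The master protease PEP4 had 1.53 / 1.70. APE1 and AMS1 reach the vacuole by selective autophagy, and their receptors rose too, ATG19 at 2.36 / 2.23 and ATG34 at 3.24 / 1.89.

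Core autophagy genes rose in fewer places. ATG8, the ubiquitin-like protein of the autophagosome membrane, had 3.78 / 3.60, ATG9 2.29 / 1.57 and the scaffold subunit ATG29 2.36 / 2.07. ATG1 and ATG13, the kinase and its TORC1-regulated partner, had 0.90 / 0.37 and 0.47 / 0.15, within 2-fold. ATG22, which exports amino acids from the vacuole, fell to −1.41 / −1.89, and SNX41, a sorting nexin, to −1.98. The proteasome did not share in the vacuolar rise: of 37 measured genes none rose and SCL1 fell, at −1.61 / −1.35, with a median of 0.04. The vacuolar proton pump had no rise in 18 genes, and polyubiquitin UBI4 rose to 1.76 / 1.02.

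In energy metabolism some isoenzymes rose while others did not. Of 20 glycolytic genes 3 rose, a share near the 13.8% of all measured genes that rose. These were glucokinase GLK1 at 1.96 / 2.35, PYK2 at 1.55 / 1.97 and hexokinase HXK1 at 1.83 / 0.88. Their abundant counterparts CDC19 and HXK2 had means of −0.42 and −0.92, and TDH3 had −0.23. 8 of 21 TCA cycle genes rose and none fell, among them CIT3 at 3.14 / 2.17, the isocitrate dehydrogenase IDP1 at 2.08 / 2.68 and SDH4 at 1.63 / 2.18. SDH1 and FUM1 had −0.51 and −0.82, so the cycle did not rise as a whole. Malate synthase MLS1 rose to 2.17 / 2.71, while isocitrate lyase ICL1 and the gluconeogenic FBP1 had −0.18 and −0.78. In cytochrome c oxidase COX5B, the hypoxic form of subunit 5, rose to 3.10 / 2.83 and its aerobic form COX5A had 0.43 / 0.23, while the assembly factors SHY1, COX14 and COX18 fell to −1.66, −1.61 and −1.52.

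In the ATP synthase list the genes past the rule were regulators, INH1 at 1.45 and STF2 at 1.66. HAP4, the activating subunit for respiratory genes, had −0.18 / −0.55. Of the external NADH dehydrogenases NDE2 rose to 1.49 / 1.87 and NDE1 fell to −1.30 / −1.05. The hexose transporter HXT6 had 2.23 / 2.37, and HXT7, which is almost identical to it, had −0.22 on array 2 alone, so the rise cannot be assigned to HXT6 with certainty. GAL2 fell to −2.22 / −2.29. The carnitine acetyltransferase YAT2 rose to 3.45 / 3.70, its relatives YAT1 and CAT2 had 1.51 and −0.39, and the fatty acid oxidation gene POT1 rose to 1.67. In mitochondrial import, TOM20, a receptor on the outer membrane, fell to −3.14 / −3.27, with no rise in 23 measured genes.

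Lipid and metal genes were near the background or under it. Ergosterol synthesis had 1 rise, ERG28 at 1.16, in 22 measured genes. OPI3, which carries out the last methylations towards phosphatidylcholine, rose to 3.16 / 3.52, while CHO2, which carries out the first, had −0.51 / −0.99. The elongase ELO3 fell to −1.90 / −1.86. Iron genes had 1 rise, ISU1 of iron-sulfur cluster assembly at 1.18, and no fall in 26 genes, and the copper regulator CUP2 rose to 2.88 / 2.90. ZPS1, a zinc-regulated wall protein, fell to −2.72 / −2.40. Phosphatases split by place: the periplasmic PHO3, PHO11 and PHO12 fell to −2.84, −1.31 and −1.37, and the vacuolar PHO8 and the lipid and nucleotide phosphatase PHM8 rose to 1.72 and 2.52.

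Cell cycle genes were mostly below the rule, although TORC1 inhibition is known to arrest cells in G1. CLN3, the G1 cyclin whose translation depends on TORC1, had −1.06 / −0.44 and CLN1 and CLN2 had means of 0.02 and 0.15. CLB6 fell to −2.11 / −1.73, and PCL5, the cyclin that marks Gcn4 for degradation, rose to 2.41 / 2.59. None of 10 histone genes and none of 15 daughter-cell separation genes passed the rule. Of 45 replication and G1/S genes 1 fell, RFC5 at −1.01, with a median of −0.39. FKH1, a forkhead regulator of mitotic genes, fell to −3.53 / −3.80, which stands apart from its list. Mating genes were unevenly measured: STE2, the alpha-factor receptor of MATa cells, had 1.36 / 1.15 and AGA2, a MATa agglutinin, 2.04 / 1.52, while STE3 and MFA1 had no value. In all 6 of 30 mating genes rose, FUS1 among them at 1.18.

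The genes of TORC1 itself were within 2-fold on average. TOR1 had 0.69 / 0.09, KOG1 0.42 / 0.25 and SCH9 −0.48 / −0.70, and FPR1, the rapamycin receptor, had no value. SLM4, of the EGO complex that activates TORC1, and NPR2 and IML1, of the complex that inhibits it, rose to 1.54, 1.20 and 1.08. In the protein kinase A pathway GPG1, a subunit linked to the receptor Gpr1, had 4.12 / 4.27 and the phosphodiesterase PDE1 3.11 / 2.95. RAS1 fell to −1.98 / −2.34, while RAS2 had 0.13 / −0.32. No Snf1 pathway gene and no type 2C phosphatase passed the rule in 11 and 7 measured, and PTC1 itself had 0.003 / −0.53.

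Cell wall integrity genes rose at the kinase and its outputs. SLT2, the MAP kinase of the cascade, had 2.50 / 2.03, its pseudokinase relative KDX1 3.0 / 2.48, and the targets PRM5 and PST1 2.82 / 2.82 and 2.42 / 3.03. RLM1, the factor that Slt2 activates, rose to 1.47. The kinase kinases MKK1 and MKK2 stayed at −0.26 and 0.48, and the sensor MID2 fell to −1.51 / −1.11 while its relative MTL1 rose to 1.15. Of 42 genes that build the wall 11 rose and 2 fell. SED1 and SPI1, wall proteins of stationary cells, had 1.76 / 2.29 and 1.87 / 2.12. In the SET3 deacetylase complex 2 of 7 measured genes rose. HOS4 had by far the largest value, at 4.65 / 5.13, HOS2 rose to 1.15 and SET3 had 0.63.

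Families near chromosome ends gave both directions. Seripauperins and the TIR and DAN mannoproteins, small wall proteins induced without oxygen, were taken as 1 list, which fell in 14 of 24 measured genes, with PAU4 at −1.78 / −1.78 and PAU19 as the rise at 1.20 / 1.15. The isomaltases IMA2, IMA3 and IMA4 had −1.68, −1.74 and −1.72. These families are so alike in sequence that single members cannot be told apart with certainty, and the members of each are not independent readings. The COS family was split, with COS4 at 5.19 / 5.88 and COS12 at −1.94 / −1.82. By position, 18.8% of the measured genes among the first 10 from a chromosome end rose and 19.3% fell, and among those ranked 11 to 20 from an end 19.7% rose and 11.1% fell. Beyond rank 40 the shares were 13.6% and 14.3%.

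Isoenzymes and other related genes were also compared in pairs. Of 82 pairs of related genes, taken from general knowledge of yeast and not from sequence, 69 had both members measured. Both members moved the same way in 14 pairs, 1 member passed the rule in 25, neither did in 26, and the members went opposite ways in 4. Over all measured genes 13.8% rose and 15.0% fell. Pairs of unrelated genes were not counted, so these numbers do not set isoenzymes apart from other genes. The opposite pairs were BAT2 over BAT1, DAK1 over DAK2, URA10 over URA5 and NDE2 over NDE1. BAT2, the cytosolic branched-chain transaminase, had a mean of 3.77 ± 0.03 and mitochondrial BAT1 −1.60 ± 0.23. URA10, the minor orotate transferase, had 1.30 ± 0.25 and the major URA5 −1.33 ± 0.05. The widest gap was in CTP synthetase, where URA8 had 0.92 ± 0.07 and URA7 −4.95 ± 0.10. In 26 pairs the means were within 0.5 of each other, and in 23 pairs they were at least 2 apart. In the pairs at least 2 apart the member that was higher after rapamycin included TSA2 over TSA1, PDE1 over PDE2, SSE2 over SSE1, PGM2 over PGM1, TIF4632 over TIF4631 and CAM1 over TEF4. Pairs in which both members rose included SSA3 with SSA4 and ALD2 with ALD3, at 1.95 and 2.06. TEF1 and TEF2, which cannot be told apart on the arrays, are also among the pairs counted as moving the same way. Where members are alike in sequence, a probe for one can bind cDNA of the other. Like values in a pair may then be the same signal read in both rows, which was not tested.

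**Figure D4:**
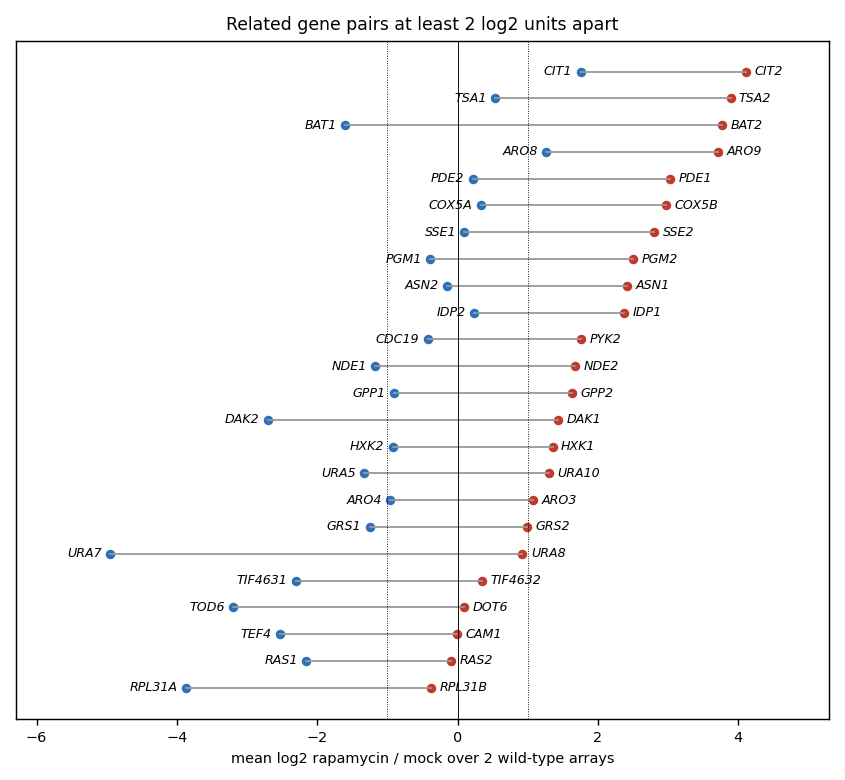
Related gene pairs whose mean log2 ratios of rapamycin over mock in the wild type (horizontal axis) were at least 2 apart; red is the higher member, blue the lower, and dotted lines mark 2-fold. Colour marks the order within a pair and not a call; URA7 and URA8, and BAT1 and BAT2, have the longest lines, and the RPL31 copies are the ribosomal pair that reached this size.

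Outside the lists lay 690 of the genes past the rule, and the following were picked after their values were seen. TMT1, a methyltransferase that acts on trans-aconitate, had 5.03 / 4.82 and the stress gene DDR2 4.24 / 4.60. NQM1, a transaldolase isoenzyme, had 3.92 / 4.04 and MSC1 and FMP23, whose proteins are less well known, had 3.96 / 3.91 and 3.83 / 4.23. The gene listed as ARO5 (YGL117W) had 4.92 / 4.63. ALT1, the mitochondrial alanine transaminase, had 3.47 / 3.89. TFS1, an inhibitor of the vacuolar carboxypeptidase Y, had 3.34 / 3.49, and NIT1, a nitrilase, 3.14 / 3.12. The row next to it, YIL165C, had 3.23 / 3.31, close to the values of NIT1. SRL3 and MSS11, regulators of growth at G1 and of filament formation, had 3.62 / 3.54 and 3.05 / 3.39.

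Reading frames that the current gene table does not hold also gave values. Of 498 such rows 241 were measured on both arrays, and 23 rose and 61 fell. For the 66 called rows with a measured tabled gene numbered next to them on the chromosome arm, the neighbour with the larger change was read. It had also fallen beside 21 of 49 fallen rows (42.9%) and had also risen beside 8 of 17 risen rows (47.1%). The same shares for tabled genes that fell or rose were 29.0% and 19.3%. In 9 cases the neighbour of a fallen row was a ribosomal protein gene. YPR044C had −3.74 / −3.77 beside RPL43A at −3.75 / −3.77, YLL044W had −3.81 / −3.58 beside RPL8B at −4.12 / −3.87, and YOR121C had 3.83 / 3.49 beside GCY1 at 3.04 / 3.10. Of the 29 rows that shared their neighbour's call, 25 lay on the strand opposite to it, as did 49 of all 66 called rows. Whether the arrays read 1 strand is not given in the sources used here, so transcripts of such a frame and of its neighbour cannot be told apart. Some rows went against the neighbour that was read. YFL063W had −2.54 / −2.22 next to COS4 at 5.19 / 5.88, and YCR087W −3.09 / −3.59 next to the actin-binding ABP1 at 1.11 / 0.92. Genes whose systematic name carries a suffix after the strand letter were not read as neighbours. A closer or overlapping gene may therefore have been missed.

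**Figure D5:**
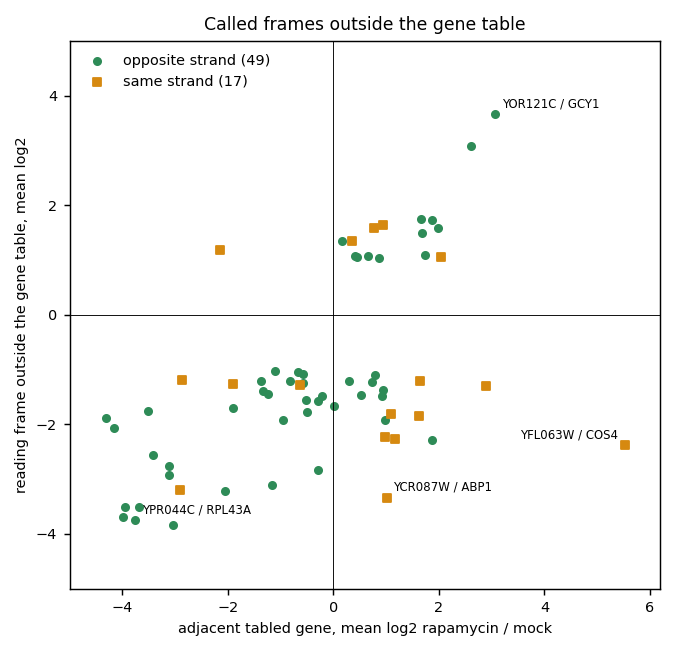
Mean log2 ratio of rapamycin over mock in the wild type for the 66 called reading frames outside the gene table (vertical axis) against the adjacent tabled gene with the larger change (horizontal axis). Circles are frames on the opposite strand, 49 in number, and squares the 17 on the same strand; those at lower left fell next to genes that fell.

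The precision of these values came from the agreement of the arrays and was limited by their number. Across the 4796 genes, which are not independent replicates, Pearson's r between the arrays was 0.958 and Spearman's rho 0.920. The median SD of a gene was 0.155, and 76 genes past the rule had an SD over 0.5. The arrays were at least 1 apart for 65 genes, of which 17 passed the rule. HEF3, the little-used copy of translation elongation factor 3, had 2.16 / −1.58, the widest gap of all. YEF3, the copy in use, had −3.71 on array 2 alone. VPS41 had 1.89 / 0.20, so its call rests on array 1, and ATG34 and YOR309C differed by more than 1 on the log2 scale between the arrays while keeping their sign. On 1 wild-type array alone 385 genes had a value, of which 39 were at 1 or more and 65 at −1 or less, and 995 had none. A missing value is not a level: per the labels, small and dim spots were left out.

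For the 20 largest rises the wild-type means ran between 3.93 and 5.60, against 1.90 to 4.77 in the ptc1 strain for the 19 with values on both its arrays. For the 20 largest falls the wild-type means ran between −5.33 and −4.18, against −4.79 to −3.32 in the ptc1 strain. The ptc1 value was the smaller in size for 18 of those rises and for all 19 measured falls. These genes were picked for their size in the wild type, which favours smaller values elsewhere, and with 1 RNA pair per strain the difference was not tested.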

How the data were processed

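Cy3- and Cy5-labelled cDNA was hybridised to spotted 2-colour arrays. Per the labels' protocols, each label reaction used 8 µg of total RNA. The authors discarded spots smaller than 120 µm in diameter or dimmer than 150 intensity units in Cy3 and Cy5, per the labels, and used the ratio of medians to normalise. The deposited values are log2 ratios on the reading made here, 1 per row and array, with rapamycin over mock. The sources used here do not give the log base, the direction, the scanner software, the background correction or the handling of repeated spots. All 4 columns correlate positively although the dyes were swapped, and signs were kept as deposited. In the labels of the ptc1 arrays, titles and dye fields disagree on which dye marks rapamycin.

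Of 6212 rows, 5662 were named by locus tag and 52 by synonym from the R64 RefSeq gene table. The other 498 kept their identifier, and averaging repeated genes left 6176. Rows with a value numbered 5017 on wild-type array 1 and 5006 on array 2, with medians of 0.131 and −0.0015. A gene was called where both arrays had a value of the same sign and the mean was at least 1 in size. No p-value was calculated, since the dye swap repeats 1 RNA pair. Alternatives changed the centring, the scaling, the arrays, the genes and the fold size.

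Members and all 101 gene lists were chosen with earlier results of these data known, and 6 list entries found to be wrong were dropped after values were seen. Named were the 20 largest rises and falls, up to 4 leading and 3 opposing members of each list, preset key members, opposite pairs and the 10 widest array gaps. Partners and neighbours of these, and others needed to describe a pathway, were chosen after their values were seen. Some list members are counted but not reported here by name. Gene pairs came from general knowledge, because protein and promoter sequences were not used here. Python 3.11.15, pandas 2.3.3, numpy 2.4.6, scipy 1.17.1 and matplotlib 3.10.9 were used.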

Additional observations from a re-analysis of the deposited data

How the results depend on the processing

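The counts of 660 rises and 718 falls depended most on the fold size asked for: at 1.5-fold there were 1264 rises and 1138 falls, and at 3-fold 265 and 435. Without 1 of the arrays they ran between 639 and 789 rises and between 746 and 814 falls. Centring each array on its median, which lowers every mean by 0.0635, gave 602 and 774, asking for 2-fold on each array 529 and 644, taking genes with a value on at least 1 array 699 and 783, and taking genes of the R64 table alone 637 and 657. Of 472 named genes none that rose came out as a fall, and none that fell as a rise, under any alternative that was run. For almost every alternative this was fixed in advance. Leaving out an array could not turn a call, since the rule asks for the same sign on both. Changes of fold size, of scaling or of the genes taken could not turn a sign either. Centring lowered a mean by 0.0635, too little to turn a mean of 1 in size. Only keeping the first row of a repeated gene could have done so. The lack of reversals is therefore no measure of how firm the calls are. HEF3, which did neither, had 2.16 on array 1 and −1.58 on array 2. It therefore lay past 2-fold on opposite sides when one or the other was left out. Of 101 list medians 13 values in 606 changed sign, the largest being 0.22 in size. Moves larger than the spread between the arrays numbered 100, and the largest move of a list median was 1.30. The median of the allantoin list, 0.88 over genes on both arrays, was 2.18 with genes on at least 1 array, because DAL7 and DUR12, which have a single value, then enter a list of few genes, and 2.10 without array 2. The median of the nitrogen-regulated permeases, 2.27, was 1.49 without array 1. No paired analysis was possible because the results come from no test. Promoter motifs, with a shorter window or without shared windows, and pairs at 70% protein identity were planned and not run, since sequences were not used here.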
